A study of Mus musculus with 6 samples.

Results

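Contractile genes of myoepithelial and smooth muscle cells were examined in mouse breast tumors. The list held 10 genes, *Acta2*, *Actg2*, *Myh11*, *Myl9*, *Tagln*, *Cnn1*, *Cald1*, *Mylk*, *Oxtr* and *Trp63*, chosen by symbol for the role of each gene. All 10 were found by NCBI Gene identifier among the 18460 genes listed in at least 1 tumor, and all 10 were listed in every tumor. RNA sequencing covered 6 tumors, 3 test and 3 control, from Balb/c mice. Test tumors came from K14-TSLPtg;PyMTtg;Rag1KO mice that received CD4+ T cells, and control tumors from PyMTtg;Rag1KO mice that received CD4+ T cells. All mice therefore carried the PyMT transgene, which the MMTV promoter drives in mammary epithelium, lacked *Rag1* and so their own T and B cells, and were given sorted CD4+ T cells at 4 weeks of age. Tumors were taken at 18 to 20 weeks. The K14 promoter is that of keratin 14, a keratin of skin keratinocytes and of basal mammary epithelium, and it drives thymic stromal lymphopoietin (TSLP) in test mice only. Between 8373390 and 9449565 expected counts were deposited for a tumor. Control replicate 2 was less like its own group than like the test tumors across all genes, and control replicate 3 was far above the other tumors for most of the contractile genes, so results are given with and without them where they matter. Each value comes from bulk tumor RNA.

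Myoepithelial cells form the basal layer around the milk-secreting luminal cells of the mammary gland and contract when oxytocin reaches them. They carry basal keratins and the transcription factor p63, encoded by *Trp63*, together with a smooth muscle contractile apparatus. The same apparatus is found in the smooth muscle and pericytes of blood vessels and, in part, in activated fibroblasts. In these cells actin and myosin filaments slide after myosin light chain kinase phosphorylates the myosin light chain, while calponin and caldesmon restrain the myosin on actin. Many of the genes are switched on by serum response factor (SRF) with its partner myocardin. SRF binds the CArG box, a pair of C, a run of A or T, and a pair of G.

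Promoter sequences are shown for 3 members, because most of the members shared 1 pattern over the tumors and the CArG box is the element best known from their promoters. RefSeq promoter entries on GRCm38.p6 were matched for 6 members, in 7 windows, with 2 windows for *Cald1*. Entries for *Myh11*, *Tagln*, *Actg2* and *Trp63* were not used here. The 250 bases before the start of each entry were searched. That start is not the outer end of the gene interval given with each gene, since it lies 212 bases inside the interval for *Acta2*, 56 for *Myl9*, 32 for *Cnn1* and 1210 for *Oxtr*, and the second *Cald1* window and the *Mylk* window begin at inner starts. The *Oxtr* window and most of the *Acta2* window thus fall within the annotated gene. Capitals mark a CArG box or a site that departs from it by 1 base inside the run of 6 A or T, and each line runs 5′ to 3′ on the strand of the gene. The lines give 30 bases around each *Acta2* site (chr19:34255438-34255467 and chr19:34255388-34255417, minus strand), and the part of the window before the annotated gene for *Myl9* (chr2:156775214-156775407, plus strand) and for *Cnn1* (chr9:22099003-22099215, plus strand), a window without a site.
Acta2: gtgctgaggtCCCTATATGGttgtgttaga
Acta2: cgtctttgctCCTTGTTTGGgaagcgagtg
Myl9: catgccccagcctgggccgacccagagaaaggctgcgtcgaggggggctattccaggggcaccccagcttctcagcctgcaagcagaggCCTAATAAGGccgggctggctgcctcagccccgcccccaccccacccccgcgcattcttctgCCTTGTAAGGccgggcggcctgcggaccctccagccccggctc
Cnn1: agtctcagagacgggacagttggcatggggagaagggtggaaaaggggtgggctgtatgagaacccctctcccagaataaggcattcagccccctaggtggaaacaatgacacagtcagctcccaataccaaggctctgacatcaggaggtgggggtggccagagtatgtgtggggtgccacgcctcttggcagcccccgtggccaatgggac
The *Myl9* window held 1 full CArG box, CCTAATAAGG, with its first base at position -161 from the start of the entry, and 1 near match, CCTTGTAAGG, at -99. The *Acta2* window held 2 near matches, CCCTATATGG at -84 and CCTTGTTTGG at -34. Neither form was found in the windows of *Cnn1*, *Oxtr*, *Mylk* or *Cald1*, which says only that these letters were not in those stretches. A full CArG box was present in 1.47% of all 32851 promoter windows of this length, and a full or near match in 8.59%. The near match was added after the full box had been searched. The form of the box is the same on both strands, so both were covered.

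Smooth muscle α-actin, encoded by *Acta2* (NCBI Gene 11475, chromosome 19, 34240336 to 34255585 on GRCm38), forms the thin filament of contractile cells. It had 97.1, 74.3 and 682 FPKM (fragments per kilobase of gene length, scaled for sequencing depth) in control replicates 1, 2 and 3. Test replicates 1, 2 and 3 had 227, 128 and 51.5 FPKM. Control replicate 3 stood far above the other 5 tumors, and the remaining control tumors lay inside the range of the test tumors. Group means were 136 ± 88.2 FPKM in test and 285 ± 345 FPKM in control tumors (SD, n = 3 each). The log2 fold change of test over control was -1.04 (SE 0.89, BH-adjusted p = 0.784 by the edgeR quasi-likelihood test), and 0.62 without control replicate 3. SE is the standard error of the fit, and BH is the Benjamini-Hochberg adjustment over all genes tested. In bulk tumor RNA, fewer cells of a type and less RNA per cell cannot be told apart.
Smooth muscle γ-actin, encoded by *Actg2* (NCBI Gene 11468, chromosome 6, 83512909 to 83536251), is the actin of visceral smooth muscle. Its levels were 2.93, 8.19 and 110 FPKM in the control replicates, always given here in the order 1 to 3, against 17.1, 10.6 and 6.77 FPKM in the test replicates. The lowest and the highest value thus both belonged to control tumors, and all 3 test tumors lay between them. Control replicate 3 held 90.8% of the *Actg2* FPKM summed over the control tumors. The log2 fold change was -1.77 (SE 1.15, BH-adjusted p = 0.714 by the edgeR quasi-likelihood test), and it became 1.05 without that tumor. Because *Acta2* and *Actg2* encode closely related proteins, their GENCODE transcripts were compared, and 0 of the 1592 stretches of 50 bases in *Actg2* occurred in *Acta2*.
Smooth muscle myosin heavy chain, encoded by *Myh11* (NCBI Gene 17880, chromosome 16, 14194527 to 14292188), is the motor protein of these cells and a gene largely kept to cells of the smooth muscle type. It was at 1.03, 9.01 and 71.4 FPKM in the control replicates and at 43.7, 5.26 and 1.13 FPKM in the test replicates. Control replicate 3 and test replicate 1 were high, whereas control replicate 1 and test replicate 3 were nearly equal at the bottom of the order. The span from lowest to highest tumor was 69.3-fold, the widest of the 10 genes. Between the groups the log2 fold change was -0.69 with a standard error of 1.5 and turned to 1.73 without control replicate 3.
The regulatory myosin light chain gene *Myl9* (NCBI Gene 98932, chromosome 2, 156775408 to 156781657) encodes the subunit that the kinase phosphorylates. Control replicates had 107, 47.6 and 309 FPKM and test replicates 113, 81 and 29.4 FPKM. Control replicate 3 was again the highest tumor and test replicate 3 the lowest, with the other 4 tumors of both groups between them. Its log2 fold change was -1.04 with a standard error of 0.71 and -0.11 without control replicate 3.

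**Figure D1:**
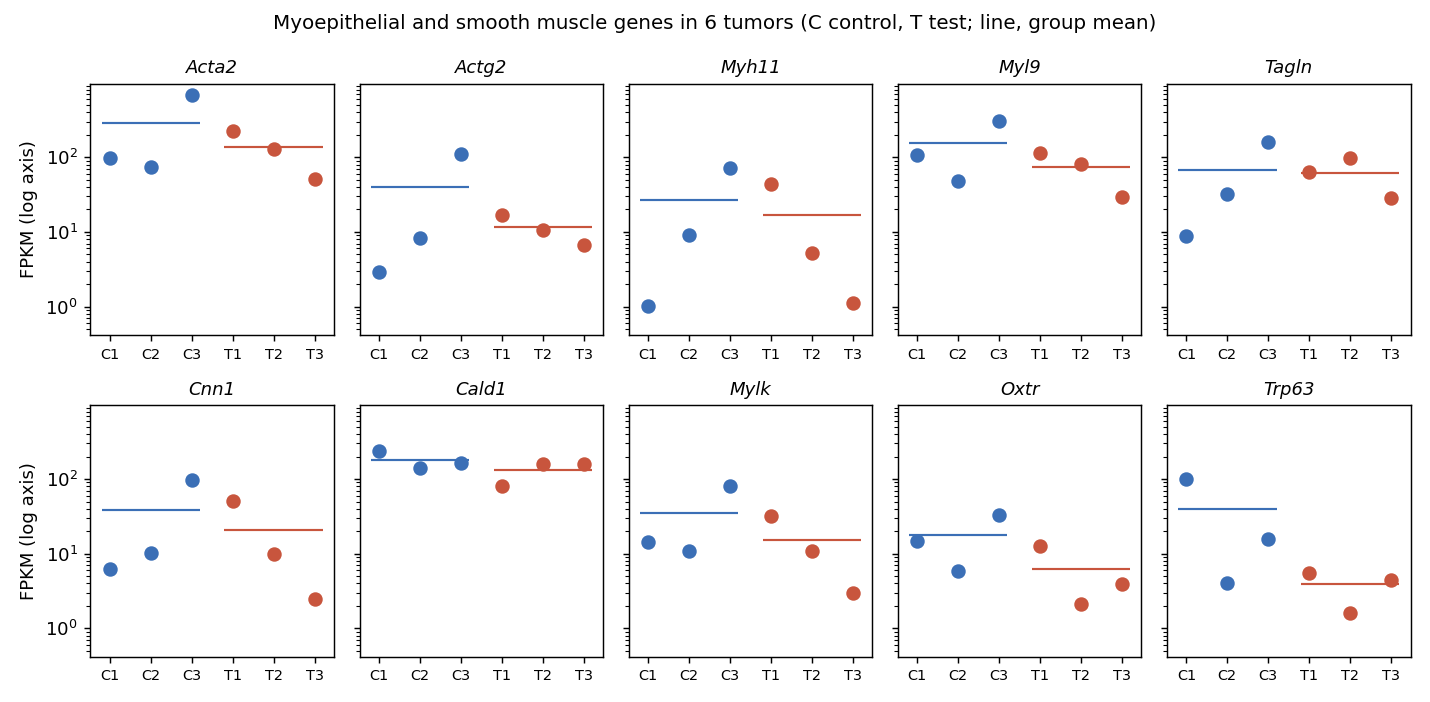
FPKM on a log axis (vertical) of the 10 genes in each of the 6 tumors (horizontal, C1 to C3 control replicates in blue, T1 to T3 test replicates in red), with points for tumors and lines for group means. Control replicate 3 is the highest tumor for 8 of the 10 genes, and control and test points overlap for all 10.

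Among the actin-binding regulators, transgelin (*Tagln*, NCBI Gene 21345, chromosome 9, 45929628 to 45936058), an actin cross-linking protein of smooth muscle, was at 8.78, 32.5 and 161 FPKM in the control replicates and at 62.8, 96.5 and 28.3 FPKM in the test replicates. Here test replicate 2 came second, ahead of test replicate 1. The group means of 62.5 ± 34.1 FPKM in test and 67.5 ± 82.0 FPKM in control tumors (SD, n = 3 each) were close, with a log2 fold change of -0.05 (standard error 0.91). Without control replicate 3 the log2 fold change was 1.63. *Tagln* overlaps the gene *Pcsk7* at its end in the annotation. Whether counting used strand is not given in the sources used here.
Calponin 1 (*Cnn1*, NCBI Gene 12797, chromosome 9, 22099221 to 22109221), an inhibitor of actomyosin, followed *Myh11* in its 2 highest tumors. The control replicates had 6.32, 10.3 and 98.3 FPKM and the test replicates 50.2, 9.88 and 2.5 FPKM. The groups overlapped, though control replicate 3 lay above all test tumors and test replicate 3 below all control tumors. The log2 fold change was -0.87 with a standard error of 1.23. It was 1.29 without control replicate 3.
Caldesmon (*Cald1*, NCBI Gene 109624, chromosome 6, 34598495 to 34775469) also binds actin and has a form found in most non-muscle cells. Its levels were 237, 141 and 162 FPKM in the control replicates and 80.9, 158 and 160.0 FPKM in the test replicates. *Cald1* varied least, by 2.93-fold between the lowest tumor, test replicate 1, and the highest, control replicate 1. In FPKM control replicate 3 was second, close to test replicates 2 and 3. For the groups the log2 fold change was -0.43 (SE 0.40, BH-adjusted p = 0.793 by the edgeR quasi-likelihood test), and it was -0.12 without control replicate 1 and -0.16 without test replicate 1.
Myosin light chain kinase (*Mylk*, NCBI Gene 107589, chromosome 16, 34745199 to 35002436) starts contraction when calcium and calmodulin rise. It was at 14.5, 10.9 and 79.9 FPKM in the control replicates and at 32.2, 11.03 and 2.97 FPKM in the test replicates. Test replicate 3 was the lowest tumor here, as for *Acta2*, *Cnn1* and *Myl9*. *Mylk* had a log2 fold change of -1.18 with a standard error of 0.96 and 0.23 without control replicate 3.

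The last 2 members mark myoepithelial identity and its hormone response. *Trp63* was highest in control replicate 1, while *Oxtr* was highest in control replicate 3, as most of the list was. The oxytocin receptor (*Oxtr*, NCBI Gene 18430, chromosome 6, 112473683 to 112491035) triggers milk ejection. The control replicates had 14.7, 5.88 and 33.3 FPKM and the test replicates 12.5, 2.14 and 3.97 FPKM. The 2 highest tumors were controls and the 2 lowest were test tumors, but control replicate 2 lay below test replicate 1, so that the groups overlapped. The log2 fold change was -1.55 (SE 0.76, BH-adjusted p = 0.656 by the edgeR quasi-likelihood test), and -0.81 without control replicate 3. The two-sided exact permutation test gave p = 0.2, where 3 tumors against 3 cannot give less than 0.1.
p63 (*Trp63*, NCBI Gene 22061, chromosome 16, 25683763 to 25892088) is the transcription factor that maintains basal epithelial cells. It was at 99.3, 4.01 and 15.8 FPKM in the control replicates and at 5.58, 1.61 and 4.48 FPKM in the test replicates. Control replicate 1 was 6.28-fold above the next tumor, control replicate 3, while control replicate 2 lay below test replicates 1 and 3. The means were 3.89 ± 2.05 FPKM in test and 39.7 ± 51.9 FPKM in control tumors (SD, n = 3 each). The log2 fold change was -3.15 (SE 1.09, BH-adjusted p = 0.491 by the edgeR quasi-likelihood test), with an unadjusted p of 0.0214 in that model. It was -1.16 without control replicate 1, where the unadjusted p from edgeR was 0.132, and -3.53 without control replicate 3. DESeq2 gave *Trp63* an adjusted p of 0.0268 with all 6 tumors, and the adjusted p of the other settings ran from 0.104 to 1. The two-sided exact permutation test gave p = 0.3.
The deposited length of *Trp63*, an average over its 8 listed transcripts, was 3469 bases in control replicate 1 and between 3795 and 4489 bases in the other 5 tumors. Control replicate 1 thus had both the highest level and the shortest average transcript. For the other members the length was the same in all 6 tumors to within 1 base.

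Over all 10 genes, 0 passed a false discovery rate of 0.05 by the edgeR quasi-likelihood test, beside 0% of the 13706 genes tested. An unadjusted p under 0.05 was reached by 1 of the 10, *Trp63*, beside 8.41% of all genes tested (1153 genes), and 5.26% of all genes tested had such a p and were lower in test tumors. Of the 10 genes, the number with such a p was 0 without test replicate 2 or test replicate 3, beside 8.16% and 7.67% of all genes, and 2 without test replicate 1, beside 7.98%. DESeq2 called 1 of the 10 at a false discovery rate of 0.05, *Trp63*, and 313 of all genes. The groups were fully separated for 0 of the 10, beside 12% of all genes tested. All 10 fitted log2 fold changes were negative, and their median was -1.04, while 48.5% of all genes tested had a negative value and the median of all was 0.02. The sign rested on control replicate 3. Without it 6 of the 10 genes had a positive log2 fold change, *Acta2*, *Actg2*, *Myh11*, *Tagln*, *Cnn1* and *Mylk*, and the median was 0.42, where 51.3% of all genes were positive. Without control replicate 1 the number with a positive value was 0, as it was without control replicate 2.
Control replicate 2 stood apart from its group across all genes, with a correlation of log2 CPM (counts scaled by library size) of 0.87 and 0.91 to control replicates 1 and 3, and of 0.92 to 0.94 to the test tumors. Those correlations are over genes, which are not independent replicates. For the contractile genes control replicate 2 was in the lower part of the order, and without it the median log2 fold change was -1.49 and 3 of the 10 genes, *Trp63*, *Oxtr* and *Myl9*, had an unadjusted p under 0.05 in edgeR, beside 14.3% of all genes in that fit. None of the 3 passed the adjustment, with edgeR adjusted p values of 0.104, 0.269 and 0.344.

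**Figure D2:**
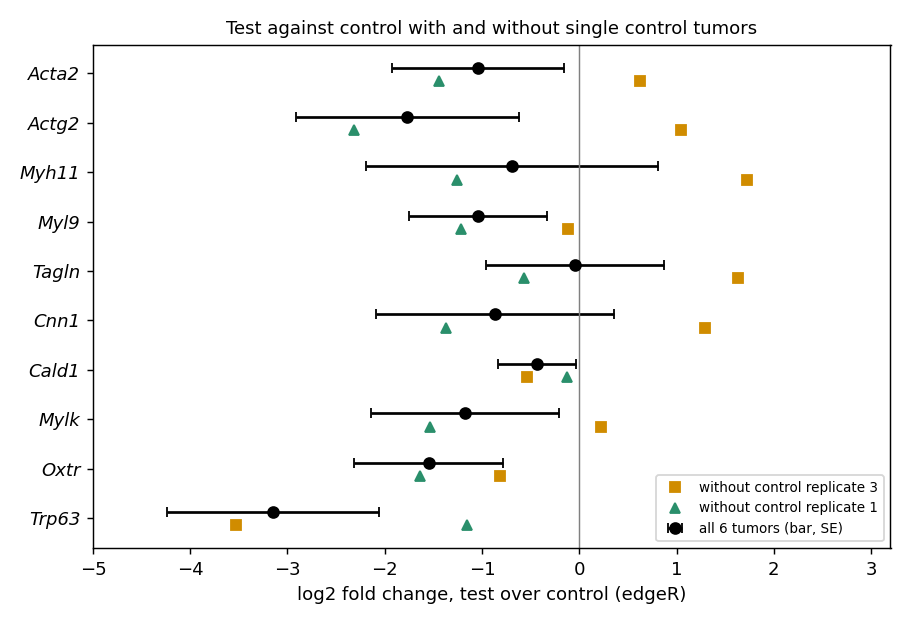
Log2 fold change of test over control (horizontal) for each gene (vertical) from edgeR with all 6 tumors (black, bar standard error), without control replicate 3 (orange squares) and without control replicate 1 (green triangles). The orange squares of 6 genes lie right of 0 and the black points of all 10 lie left of it, while *Trp63* moves from -3.15 to -1.16 without control replicate 1.

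The pattern between single tumors was larger than that between groups. Control replicate 3 was the highest of the 6 tumors for 8 of the 10 genes, all but *Cald1* and *Trp63*, where 10.8% of all genes tested were highest in that tumor. For 5 genes, *Acta2*, *Actg2*, *Myh11*, *Cnn1* and *Mylk*, test replicate 1 was second, an order that 1.7% of all genes tested showed. These genes vary together, and so the counts are a description of these tumors. The mean of the centered log2 levels of the 10 genes was 1.99 in control replicate 3 and 0.61 in test replicate 1. Control replicates 1 and 2 were at -0.27 and -0.56, and test replicates 2 and 3 at -0.43 and -1.35.
Over the 6 tumors the log2 level of *Acta2* had a Pearson correlation of 0.95 with *Mylk*, 0.94 with *Cnn1* and *Myl9*, 0.88 with *Actg2* and 0.83 with *Myh11*. It had one of 0.70 with *Tagln*, 0.705 with *Oxtr*, 0.16 with *Trp63* and -0.22 with *Cald1*. Each is over 6 points that share their libraries and that include the extreme control replicate 3. *Trp63* was nearest to *Oxtr*, with a correlation of 0.72.
Although these genes varied together, their proportions differed between tumors. Per 100 FPKM of *Acta2*, there were 1.06, 12.1 and 10.5 FPKM of *Myh11* in the control replicates and 19.2, 4.10 and 2.19 FPKM in the test replicates. Control replicate 1 had more *Acta2* than control replicate 2 and far less *Myh11*. For *Actg2* the same ratio was 3.02, 11.02 and 16.1 in the control replicates and 7.51, 8.23 and 13.1 in the test replicates. *Mylk* kept closer to *Acta2*, with 14.9, 14.6 and 11.7 FPKM per 100 of *Acta2* in the control replicates and 14.2, 8.59 and 5.76 in the test replicates. By level per length, *Acta2*, *Cald1* and *Myl9* had the highest means in both groups, in that order. *Oxtr* had the lowest mean of the control group and *Trp63* the lowest of the test group. Differences between neighbors in this order were smaller than the larger SD of the pair, except between *Cald1* and *Myl9* and between *Tagln* and *Cnn1* in test tumors.

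Further genes of the contractile apparatus and of contraction control did not, as a whole, share the direction of the list. Of 18 genes of the contractile apparatus outside it, 9 were higher and 9 lower in the test group, and their median log2 fold change was -0.09. An unadjusted p under 0.05 in edgeR was reached by 2 of the 18, beside 8.41% of all genes tested. These were smoothelin (*Smtn*), a structural protein of smooth muscle, and *Cnn2*, the non-muscle calponin. *Smtn* had 52.0, 38.4 and 54.6 FPKM in the control replicates and 27.1, 23.9 and 26.5 FPKM in the test replicates. All test tumors lay below all control tumors, with a log2 fold change of -0.90 (SE 0.25, BH-adjusted p = 0.425 by the edgeR quasi-likelihood test). Full separation in either direction was found for 12% of all genes tested. That share is the background for every gene called without overlap below. *Cnn2* had a log2 fold change of -1.16 with a standard error of 0.50, and control replicate 2 was within the test range at 63.2 FPKM. The cytoskeletal LIM protein gene *Csrp1* was at 211 to 261 FPKM in control and 323 to 360 FPKM in test tumors, without overlap, and its log2 fold change was 0.57 with a standard error of 0.25. Its edgeR adjusted p was 0.603.
Desmin (*Des*), the intermediate filament of muscle cells, went against the list. Control replicates had 1.10, 14.8 and 2.14 FPKM and test replicates 56.7, 20.1 and 9.43 FPKM, so that control replicate 3, the tumor with the most *Acta2* and *Myh11*, was among the lowest for *Des*. Desmin is also made by skeletal muscle, and the 11 skeletal muscle markers were all higher on average in test tumors. Their summed level was 4.05 to 120 FPKM in control and 69.7 to 632 FPKM in test tumors, and skeletal actin (*Acta1*) was at 3.68, 39.8 and 1.27 FPKM in the control replicates and 111, 42.2 and 29.1 FPKM in the test replicates. The part of skeletal muscle in the *Des* values was not tested. In control replicate 3 skeletal muscle markers summed to 4.05 FPKM while *Acta2* and *Myh11* were highest. Test replicate 1, second for both genes, had the highest skeletal muscle sum, 632 FPKM.
Genes that control contraction were split in the same way, 9 higher and 8 lower among 17 tested of 18, with a median of 0.03. An unadjusted p under 0.05 in edgeR was reached by 3 of the 17, beside 8.41% of all genes tested, and all 3 were lower in test tumors. *Itpr1*, the calcium release channel of the endoplasmic reticulum, was at 15.2, 10.3 and 17.0 FPKM in the control replicates and 8.08, 2.83 and 5.36 FPKM in the test replicates. The groups did not overlap, and the log2 fold change was -1.40 (SE 0.40, BH-adjusted p = 0.435 by the edgeR quasi-likelihood test). *Plcb1*, a phospholipase C, and *Ednra*, the endothelin A receptor, had log2 fold changes of -1.32 and -1.94, and control replicate 2 was within or near the test range at 2.12 and 2.90 FPKM. *Ppp1r12b*, a targeting subunit of the myosin phosphatase, was at 2.73 to 4.13 FPKM in control and 4.11 to 5.63 FPKM in test tumors, and its log2 fold change was 0.60 with a standard error of 0.32.
The transcription factor *Srf* had 26.9, 15.4 and 19.9 FPKM in the control replicates and 13.9, 9.81 and 14.8 FPKM in the test replicates. The groups were narrowly apart in FPKM but overlapped in the scaled counts, and the log2 fold change was -0.70 (SE 0.31, BH-adjusted p = 0.612 by the edgeR quasi-likelihood test). The 7 tested genes of SRF and its cofactors were all lower in the test group, beside 48.5% of all genes tested, with a median of -0.11. An unadjusted p under 0.05 in edgeR was reached by 0 of the 7, beside 8.41% of all genes tested. The SRF partner *Elk1* and the coactivators *Mkl1* and *Mkl2* had log2 fold changes of -0.37, -0.11 and -0.11. Myocardin (*Myocd*) did not pass the filter on low counts, with 88 counts in control replicate 1 and at most 6 in the rest.

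Basal epithelial markers were set beside the list because myoepithelial cells carry both. Of 12 basal markers, 5 were higher and 7 lower in the test group, with a median log2 fold change of -0.11, and their summed level was 158 to 421 FPKM in control and 179 to 414 FPKM in test tumors. Keratin 5 (*Krt5*, named after its values were seen) was at 3.66, 37.1 and 198 FPKM in the control replicates and 73.9, 45.9 and 80.8 FPKM in the test replicates. Control replicate 3 was thus highest for *Krt5* as for *Acta2*, *Myh11* and *Oxtr*. The same tumor was highest for the basal markers *Cdh3*, *Col17a1*, *Snai2* and *Id4*, while the other basal markers were highest in other tumors. Keratin 14 (*Krt14*) is the gene from which the promoter of the TSLP transgene was taken. It was at 8.72, 35.5 and 62.3 FPKM in the control replicates and 27.1, 67.4 and 69.8 FPKM in the test replicates. Its log2 fold change was 0.68 with a standard error of 0.65. The tumor with the highest *Trp63*, control replicate 1, had the lowest *Krt5* and *Krt14* of the 6.
An unadjusted p under 0.05 in edgeR was reached by 4 of the 12 basal markers, beside 8.41% of all genes tested. Of these 4, 3 were lower and 1 higher in test tumors. *Mme* encodes neprilysin (CD10), a surface peptidase of myoepithelial cells, and had 78.3, 2.94 and 35.0 FPKM in the control replicates and 4.94, 3.66 and 5.12 FPKM in the test replicates. Like *Trp63*, it was highest in control replicates 1 and 3 and low in control replicate 2, with a log2 fold change of -3.13 (SE 0.98, BH-adjusted p = 0.458 by the edgeR quasi-likelihood test). The stem cell receptor gene *Lgr6* had 11.9, 48.4 and 14.2 FPKM in the control replicates and 3.79, 4.61 and 9.30 FPKM in the test replicates, without overlap, and a log2 fold change of -2.03 with a standard error of 0.60. P-cadherin (*Cdh3*), at 17.3 FPKM in control replicate 3 and 2.20 to 6.43 FPKM elsewhere, had one of -1.39 with a standard error of 0.51. Integrin β4 (*Itgb4*), a hemidesmosome component, was at a higher mean in the test group, its log2 fold change being 2.05 with a standard error of 0.79, and 192 FPKM in test replicate 3 was its highest value.

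**Figure D3:**
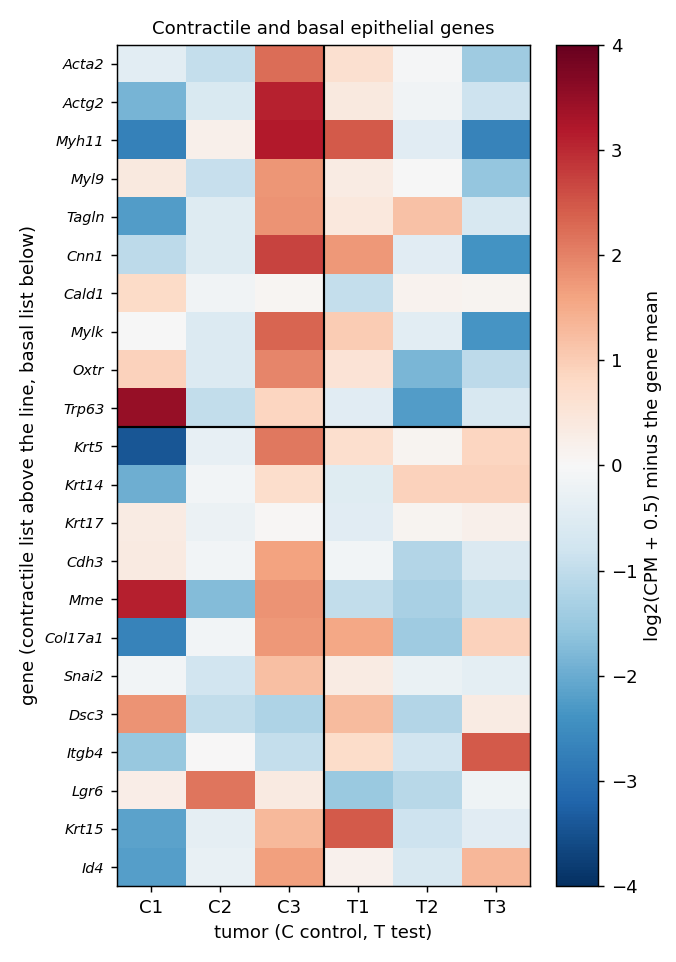
Log2(CPM + 0.5) of the 10 contractile genes and the 12 basal markers (rows) in the 6 tumors (columns, C control and T test), each row centered on its mean over the tumors. Control replicate 3 is the highest of the row for 8 of the 10 contractile genes and for *Krt5*, *Cdh3*, *Col17a1*, *Snai2* and *Id4*. The other basal markers are highest in other tumors. Control replicate 1 is deep red for *Trp63* and *Mme* and deep blue for *Krt5* and *Myh11*.

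Mural cell markers, which mark the pericytes and smooth muscle of vessels, were lower in test tumors for 8 of the 10 tested and higher for 2, and had a median log2 fold change of -0.46. Of all genes tested, 48.5% were lower in test tumors, which is the background for the counts by direction given here and below. None of the 10 had an unadjusted p under 0.05 in edgeR, beside 8.41% of all genes tested, a share at which 0 of 10 says little. The pericyte gene *Rgs5* was at 12.4, 5.72 and 14.8 FPKM in the control replicates and 5.36, 5.15 and 7.68 FPKM in the test replicates. *Cspg4*, *Pdgfrb* and *Mcam* had log2 fold changes of -0.88, -0.64 and -0.46. The summed mural level was 65.7 to 144 FPKM in control tumors, highest in control replicate 3, and 58.5 to 87.9 FPKM in test tumors. Control replicate 3 was therefore the highest tumor for mural markers. It was also the highest for basal markers, at a sum of 421 FPKM, with test replicate 3 next at 414 FPKM. *Itgb4* alone gave 192 FPKM of the sum in test replicate 3 and 18.5 FPKM in control replicate 3. The mean of the centered log2 levels of the basal markers was 0.86 in control replicate 3 and 0.38 in test replicate 3. Test replicate 3 had the lowest contractile sum, 291 FPKM. The part of either cell type in the contractile values was not tested.
Markers of other tissues followed other orders. The 11 fibroblast markers had a median log2 fold change of 0.35 and a summed level of 568 to 951 FPKM in control and 537 to 1334 FPKM in test tumors, with the maximum in test replicate 2. The 7 endothelial markers summed to 31.4 to 41.1 FPKM in control and 36.0 to 45.3 FPKM in test tumors, while *Acta2* differed 13.2-fold between its lowest and highest tumor. Luminal markers were higher in test tumors for 10 of 11, and keratin 8 (*Krt8*) did not overlap between groups at 236, 464 and 214 FPKM in the control replicates and 649, 650.5 and 798 FPKM in the test replicates. Their summed level was lowest in control replicate 3 at 1049 FPKM and highest in test replicate 1 at 3134 FPKM, the 2 tumors with the most *Myh11*. *Epcam* was at 141 to 401 FPKM in control and 337 to 397 FPKM in test tumors. The 6 leukocyte markers tested were all lower in test tumors with a median of -0.73, and *Ptprc* was at 3.50 to 7.78 FPKM in control and 2.23 to 5.64 FPKM in test tumors. The 4 fat cell markers tested were higher in test tumors, with *Adipoq* at 39.5 FPKM in test replicate 1 and 0.09 to 6.29 FPKM elsewhere.

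**Figure D4:**
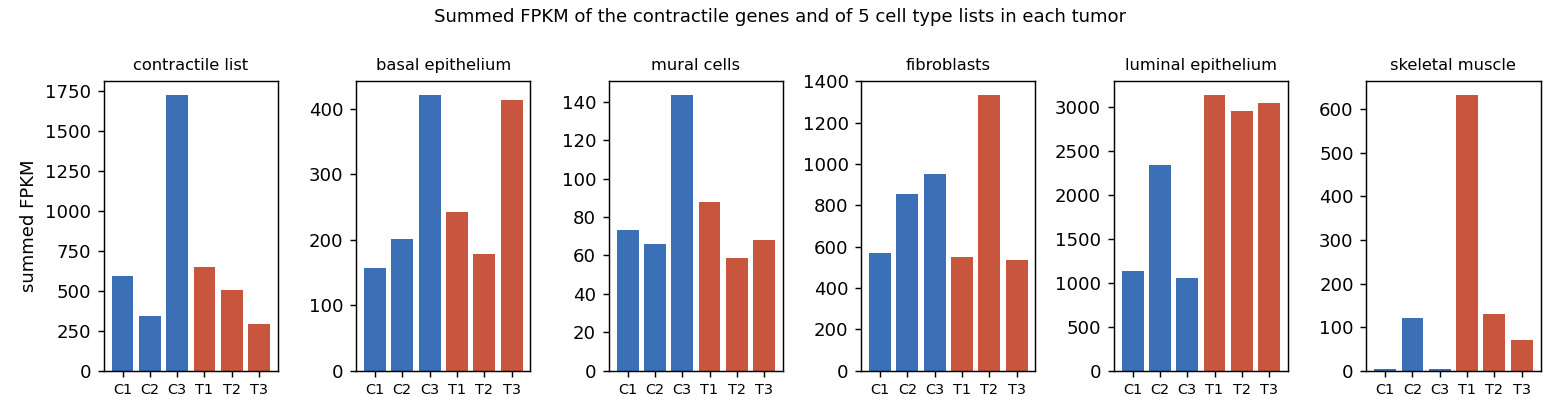
Summed FPKM (vertical, from 0, separate scales) of the 10 contractile genes and of 5 cell type lists in each tumor (horizontal, C1 to C3 control in blue, T1 to T3 test in red). The contractile sum is 1723 FPKM in control replicate 3 and 291 to 645 FPKM in the other tumors. Control replicate 3 is also highest for the mural and basal lists but not for the other 3. Its basal sum of 421 FPKM is close to the 414 FPKM of test replicate 3, of which *Itgb4* alone gives 192 FPKM.

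Outside all lists, the 5 genes whose level over the 6 tumors was most like the mean of the contractile genes were *Trnp1*, *Tesk2*, *Plxnb3*, *Pknox2* and *Psd2*, with Pearson correlations of 0.98, 0.98, 0.98, 0.97 and 0.97. Of 13582 genes compared, 15 had a correlation above 0.95, and each value rests on 6 tumors. *Trnp1* was at 5.09 FPKM in control replicate 3, at 1.87 FPKM in test replicate 1 and at 0.51 to 0.98 FPKM in the other tumors. *Tesk2*, a kinase that acts on the actin regulator cofilin, ran only from 3.16 to 4.87 FPKM. The remaining 3 were at or below 1.70 FPKM in every tumor, where few reads set the level.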

How the data were processed

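Total RNA of 3 test and 3 control tumors was sequenced by BGI on an Illumina HiSeq, and Bowtie was used to align reads to mm10, which is GRCm38. Bowtie, BWA and RSEM are named in the submitters' processing notes without their roles, and the annotation release is not given in the sources used here. Per tumor, the authors deposited expected counts by gene without normalization, the FPKM that they derived by scaling for gene length and depth, and the length itself. Genes without a row in a tumor were set to 0. Totals ran from 8373390 to 9449565 expected counts per tumor, and the lowest count of a contractile gene was 36. Counting error is thus small beside the spread between tumors, which n = 3 limits.

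Each tumor came from a separate mouse. Expected counts were rounded and tested in edgeR 4.0.16 under R 4.3.3 (filterByExpr, TMM, quasi-likelihood test, Benjamini-Hochberg adjustment over 13706 genes, no covariate). The common biological coefficient of variation was 0.434. Standard errors are the log2 fold change divided by the square root of F, without its sign. Exact permutation tests were two-sided on log2(CPM + 0.5) over the 20 splits. Alternatives were DESeq2 1.42.0, RLE, other filters on low counts, limma 3.58.1 on log2 FPKM with 1 or 0.1 added (mean FPKM 1 or more), a block on replicate number, and omission of each tumor.

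The contractile genes and the other lists were chosen with earlier results of these data known. Named genes are the 10 listed genes, the 4 with the smallest p in each of 5 related lists, the 5 most alike outside all lists, and defining markers of other cell types. *Krt5*, *Myocd*, *Krt14*, *Col17a1*, *Snai2* and *Id4* were also named after their values were seen, where the rule did not give them.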

Additional observations from a re-analysis of the deposited data

How the results depend on the processing

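Of the 60 gene results under omission of each tumor, 7 changed sign and 53 kept sign and side of the threshold, and of the 70 under the other settings 3 changed sign and 1 crossed it. Omission of control replicate 3 turned 6 genes to positive log2 fold changes, *Acta2* (0.62), *Myh11* (1.73), *Cnn1* (1.29), *Tagln* (1.63), *Mylk* (0.23) and *Actg2* (1.05), and the cause was not tested. Over the omissions *Acta2* ran from -1.58 to 0.62, *Myh11* from -2.99 to 1.73, *Cnn1* from -2.54 to 1.29, *Tagln* from -0.57 to 1.63, *Mylk* from -2.24 to 0.23, *Actg2* from -2.32 to 1.05, *Cald1* from -0.60 to -0.12, *Myl9* from -1.48 to -0.11, *Oxtr* from -2.52 to -0.81 and *Trp63* from -3.67 to -1.16. *Tagln* was also positive with limma on log2(FPKM + 1) (0.59) and log2(FPKM + 0.1) (0.63), with the replicate block (0.88) and without test replicate 3 (0.32). DESeq2 put *Trp63* past the threshold (adjusted p = 0.0268 in DESeq2, log2 fold change -3.14).

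The number of contractile genes at a false discovery rate of 0.05 was 0 in all settings but DESeq2, where it was 1. The number at an unadjusted p under 0.05 was 1 in edgeR (8.41% of all genes), 2 with DESeq2 (10.1%) and with the replicate block (7.7%), 0 with limma on log2(FPKM + 1) (7.21%) and log2(FPKM + 0.1) (7.09%), and from 0 (without test replicate 2, 8.16%, or 3, 7.67%) to 3 (without control replicate 2, 14.3%) when tumors were left out. The number with a positive log2 fold change was 1 with either FPKM scale and with the replicate block, and from 0 to 6 over the omissions. Their median log2 fold change ran from -2.18 (without test replicate 1) to 0.42 (without control replicate 3) and was -0.52 with the replicate block. Over all genes, 313 passed a false discovery rate of 0.05 with DESeq2, 1 with limma on log2(FPKM + 1) and from 0 to 182 over the omissions, the highest without control replicate 2. Same-numbered deviations had correlations of -0.03, 0.12 and -0.14. With 3 tumors in each group these cannot settle whether the replicate numbers pair the tumors. The block changed no call at a false discovery rate of 0.05, where the main fit had 0 to begin with.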
